A study of Mus musculus with 6 samples.

Results

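Long non-coding RNA (lncRNA) features at 2 loci, 4 on mouse chromosome 17 and 4 on chromosome 8, are described here across 6 libraries of RAW264.7 cells. These are 8 of the 24817 features of the authors' deposited lncRNA table and were chosen by name. They were picked because their counts and FPKM (reads scaled by transcript length and library size) had been seen to be higher in LPS_ES_PMMA in this same comparison. Their levels and fold changes are therefore given as a description, with no test.

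RAW264.7 is an established mouse macrophage line, which the labels also tie to the abdominal cavity. All 6 libraries came from cells given lipopolysaccharide (LPS) for 24 h, after which the medium was replaced by one holding an extract of bone cement. In the 3 LPS_ES_PMMA libraries the cement was polymethylmethacrylate (PMMA) with enoxaparin sodium (ES), a low molecular weight heparin, as the series title has it. In the 3 LPS_PMMA libraries the titles and treatment labels name PMMA, while the count columns and descriptions name LPS alone. No library without LPS and none of untreated cells enters the comparison. The labels do not say if each library had a culture of its own, so the spread within a group may be technical only.

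An lncRNA is a transcript without a long open reading frame. Many listed lncRNAs lie inside introns or the last exons of coding genes, where a read cannot be assigned to the lncRNA or its host gene by position alone. Ergic1 encodes a membrane protein that cycles between the endoplasmic reticulum and the Golgi, and Neurl1b encodes a ubiquitin ligase that acts on ligands of the Notch pathway. Zfp958 encodes a zinc finger protein. LPS is sensed by macrophages through Toll-like receptor 4.

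The listed positions of the 8 features give them one set of genes, and the assembled transcripts of the same table point to another. On chromosome 17, between 20 and 33 Mb, 7 of the 36 transcripts that the authors assembled themselves matched both ends of a GENCODE M21 transcript (build GRCm38, the NCBI name of mm10) after a shift of exactly 218974 bp. None of the 36 did so as listed. On chromosome 8, below 20 Mb, 1 of 7 assembled transcripts, at Kbtbd11, matched after a shift of exactly 50000 bp and none as listed. The length of the assembled transcript equalled its exon overlap with a single M21 transcript for 20 of 36 on chromosome 17 and 6 of 7 on chromosome 8 once shifted, against 0 of 36 and 0 of 7 as listed. The shifted counts include the transcripts that set each offset. The M21 transcript whose overlap came closest to the length was used, both as listed and shifted. Unlike these assembled transcripts, ENSMUST00000181337 is listed at the same ends as Gm6410 in M21. Each member is therefore described against the gene models at its listed position and at that position less the offset. Which of these genes the reads came from cannot be told apart from the table.

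At the listed positions the chromosome 17 members span chr17:26644943-26665095, which is 20153 bp. NONMMUT028809.2 (chr17:26644943-26647997, 3055 nt) and NONMMUT028810.2 (chr17:26650632-26652608, 1977 nt) lie in introns of Ergic1, and inside the RefSeq lncRNA gene Gm41553. NONMMUT028811.2 (chr17:26652952-26656929, 3978 nt) covers the end of Ergic1, with 1990 bp, or 50.0% of its interval, in Ergic1 exons. The table labels it sense to Ergic1. NONMMUT100852.1 (chr17:26663725-26665095, 1371 nt) is labelled intergenic in the table but starts 334 bp after the end of the first exon of Atp6v0e, which encodes a subunit of the vacuolar proton pump.

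Less the offset, all 4 fall within Neurl1b. NONMMUT100852.1 then lies wholly in the last exon (1371 bp, 100% of its interval), and NONMMUT028810.2 has 546 bp (27.6%) in a Neurl1b exon. NONMMUT028809.2 and NONMMUT028811.2 then have 0 bp in exons and lie in introns. The promoters of both candidate host genes are shown because the members' intervals lie in these genes. They are 300 bases from RefSeq (GRCm38.p6), plus strand, running from upstream to just past an annotated start. The windows are chr17:26414609-26414908 for Neurl1b and chr17:26561262-26561561 for Ergic1. The Ergic1 window holds the M21 start of the gene (chr17:26561489), while the RefSeq gene begins upstream of the window, at chr17:26560762. Capitals mark GGGCGG (GC box) and CCAAT on either strand.
Neurl1b: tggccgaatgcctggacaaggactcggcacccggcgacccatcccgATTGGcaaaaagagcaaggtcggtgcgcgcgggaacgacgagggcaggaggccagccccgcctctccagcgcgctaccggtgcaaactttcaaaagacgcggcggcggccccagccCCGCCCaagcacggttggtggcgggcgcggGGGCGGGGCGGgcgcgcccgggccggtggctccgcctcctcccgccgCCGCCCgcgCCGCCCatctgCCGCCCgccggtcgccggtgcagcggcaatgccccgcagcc
Ergic1: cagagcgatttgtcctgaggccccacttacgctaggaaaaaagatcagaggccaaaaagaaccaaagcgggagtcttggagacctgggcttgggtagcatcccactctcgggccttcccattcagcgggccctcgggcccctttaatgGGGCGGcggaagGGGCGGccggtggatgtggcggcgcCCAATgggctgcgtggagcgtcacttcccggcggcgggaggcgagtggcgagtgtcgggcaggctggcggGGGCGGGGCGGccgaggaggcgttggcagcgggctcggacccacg
Neurl1b holds 6 GC boxes and 1 CCAAT, with overlapping matches counted, and Ergic1 holds 4 and 1. GGGCGG is in 35.7% and CCAAT in 37.4% of the 32851 mouse promoters of the same length. On either strand neither promoter holds CACGTG (in 7.15% of promoters), TGACTCA (5.20%) or TGACGTCA (1.79%). A match, or its absence, describes the letters of these windows only.

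On chromosome 8 the members span chr8:4662218-4688494, which is 26277 bp. NONMMUT127997.1 (chr8:4662218-4663550, 1333 nt) and NONMMUT127998.1 (chr8:4672808-4673996, 1181 nt) are listed as intergenic and overlap no M21 gene, though NONMMUT127997.1 lies within the RefSeq lncRNA gene Gm39123. NONMMUT064461.2 (chr8:4677210-4680211, 1806 nt) is labelled antisense to Gm7461. In M21 its interval covers all 827 bp of that gene's single exon and 105 bp of Gm6410 exon. In RefSeq, Gm6410 spans chr8:4674840-4688740 and holds all 3002 bp of this interval, as well as ENSMUST00000181337. ENSMUST00000181337 (chr8:4678462-4688494, 1105 nt) is the M21 transcript of Gm6410, of 2 exons. In M21 its start lies 96 bp from that of Gm7461 on the other strand. NONMMUT064461.2 and ENSMUST00000181337 overlap, so reads may be shared between them, and the strand setting of the counting is not stated in what was used here.

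Less the offset, this locus lies over Zfp958. The interval of NONMMUT064461.2 then overlaps 2044 bp of Zfp958 exons (68.1% of the interval), that of NONMMUT127997.1 112 bp (8.40%), and that of NONMMUT127998.1 none. For NONMMUT064461.2 this is more than its transcript length of 1806 nt. The overlap of its own exons is therefore smaller and was not computed. Of the exons of Gm6410 itself, the 105 nt of exon 1 would fall in a Zfp958 exon and the 1000 nt of exon 2 would not. The Zfp958 promoter (RefSeq, GRCm38.p6, chr8:4612920-4613219, plus strand) is shown with the same motifs in capitals. Beside it are the first 300 bases of the Gm6410 transcript (GENCODE M21), in which capitals mark 2 identical copies of a 28-base stretch, at positions 127 and 205 from the 5′ end.
Zfp958: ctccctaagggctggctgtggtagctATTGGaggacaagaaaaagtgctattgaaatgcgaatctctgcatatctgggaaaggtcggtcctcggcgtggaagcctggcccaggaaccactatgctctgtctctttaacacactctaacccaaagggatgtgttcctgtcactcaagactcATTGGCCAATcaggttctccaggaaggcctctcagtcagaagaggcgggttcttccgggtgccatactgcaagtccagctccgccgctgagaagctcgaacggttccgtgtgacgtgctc
Gm6410: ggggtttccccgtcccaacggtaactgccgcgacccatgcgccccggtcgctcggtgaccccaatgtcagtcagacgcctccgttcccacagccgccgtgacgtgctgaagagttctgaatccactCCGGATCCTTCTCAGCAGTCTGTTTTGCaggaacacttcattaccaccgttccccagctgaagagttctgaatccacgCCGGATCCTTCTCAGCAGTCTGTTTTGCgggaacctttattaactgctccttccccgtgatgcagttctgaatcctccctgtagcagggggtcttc
The Zfp958 promoter holds 3 CCAAT boxes, 1 of them beside another on the opposite strand, and 0 GC boxes or matches to the other motifs searched. Within Gm6410, 563 of the 1076 stretches of 30 bases (52.3%) also occur in annotated transcripts of 102 other genes. Reads of ENSMUST00000181337 are therefore uncertain as to their source.

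**Figure D1:**
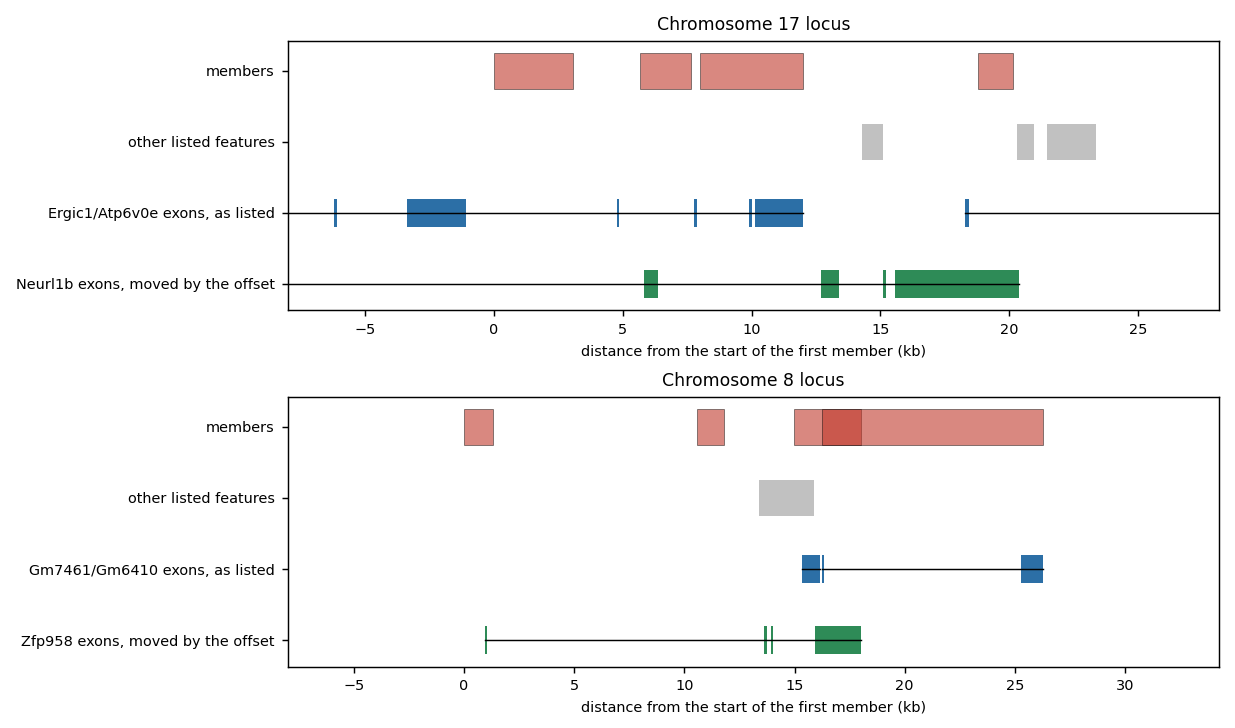
Position of the members (red) and of the other listed features (grey) in each locus, in kb from the start of the first member. Blue boxes are exons of the genes at the listed positions and green boxes exons of Neurl1b and Zfp958 moved by 218974 and 50000 bp. NONMMUT100852.1, the right-most chromosome 17 member, sits inside the last Neurl1b exon, and NONMMUT064461.2 over the last Zfp958 exon.

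The 6 columns of counts held 3261653, 1123551 and 3070657 reads in LPS_ES_PMMA 1 to 3, against 3697638, 3249485 and 2877523 in LPS_PMMA 1 to 3. Library LPS_ES_PMMA 2 was the shallowest. The 5 most abundant features took 46.6 to 69.5% of the reads in LPS_ES_PMMA and 66.3 to 78.2% in LPS_PMMA, and the TMM scaling factors of edgeR ran from 0.983 to 1.82 in LPS_ES_PMMA and from 0.559 to 0.977 in LPS_PMMA. All fold changes depend on that scaling, and the median over all tested features is given with each other scaling. Of the marker genes of macrophages, only Adgre1 has a feature in this table of non-coding RNA, and its summed level was 33.4 to 45.5 CPM (counts scaled to 1e+06 reads) in LPS_ES_PMMA and 50.2 to 62.2 CPM in LPS_PMMA. Of 8 markers of other cells, only Cd3e has one, at 0.507 to 1.68 CPM in LPS_ES_PMMA and 0.361 to 0.983 CPM in LPS_PMMA. At Adgre1 the antisense feature MSTRG.25685.1 held 358 reads in LPS_ES_PMMA and 418 in LPS_PMMA. The sense feature NONMMUT030162.2 held 4 and 0. The features at Cd3e are labelled intronic or antisense. These values are therefore not mRNA levels of the markers. With so few markers listed the cell type could not be checked, and more cells of a kind and more RNA per cell cannot be told apart. The part of these values in the results was not tested.

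The 4 chromosome 17 members together had 400, 171 and 390 reads in LPS_ES_PMMA 1 to 3, against 54, 56 and 70 reads in LPS_PMMA 1 to 3. On the TMM scale this was 97.1, 86.6 and 131 CPM in LPS_ES_PMMA, against 26.5, 22.0 and 25.3 CPM in LPS_PMMA. Each LPS_ES_PMMA library stood above every LPS_PMMA library. The means were 105 ± 23.4 CPM in LPS_ES_PMMA and 24.6 ± 2.32 CPM in LPS_PMMA (SD, n = 3 each), with a fitted log2 fold change of 2.09 (SE 0.27) or 4.26-fold. The 4 chromosome 8 members together had 214, 118 and 157 reads in LPS_ES_PMMA, against 23, 18 and 31 reads in LPS_PMMA. This was 52.0, 59.8 and 52.9 CPM in LPS_ES_PMMA, against 11.3, 7.08 and 11.2 CPM in LPS_PMMA, again without overlap. The means were 54.9 ± 4.27 CPM in LPS_ES_PMMA and 9.86 ± 2.41 CPM in LPS_PMMA (SD, n = 3 each), a log2 fold change of 2.47 (SE 0.29) or 5.55-fold.

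Of the 8 members, 8 passed the filter on low counts, 8 had groups that did not overlap in CPM, and 8 passed the edgeR threshold with higher levels in LPS_ES_PMMA. The same comparison called 4.76% of the 8873 tested features in either direction (193 higher, 2.18%, and 229 lower), and 16.2% were higher in LPS_ES_PMMA without overlap. The authors' deposited table marks all 8 UP, as it does 4.33% of its 24817 features. Because this comparison chose the members, nothing is read from these counts. The median log2 fold change of the 8 was 2.53, beside 0.03 over all tested features.

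NONMMUT100852.1 was the most abundant member of the chromosome 17 locus per length, with 20.3, 21.5 and 24.5 FPKM in LPS_ES_PMMA 1 to 3 against 3.91, 4.92 and 5.27 FPKM in LPS_PMMA 1 to 3. It is the member that lies wholly in the last Neurl1b exon less the offset. The means were 22.1 ± 2.20 FPKM in LPS_ES_PMMA and 4.70 ± 0.707 FPKM in LPS_PMMA (SD, n = 3 each), and its log2 fold change was 1.82 (SE 0.28). The order of the fold changes among members changed between the alternatives. The values within each group were close together and the groups far apart. NONMMUT028810.2, in an Ergic1 intron as listed, had 18.0, 9.39 and 17.1 FPKM in LPS_ES_PMMA against 2.49, 2.44 and 3.92 FPKM in LPS_PMMA. Its LPS_ES_PMMA 2 value was the low one of its group, yet above all of LPS_PMMA. The log2 fold change was 1.92 (SE 0.35), on 160, 46 and 146 reads in LPS_ES_PMMA against 22, 20 and 30 in LPS_PMMA.

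NONMMUT028811.2, which covers the end of Ergic1 as listed, had 4.25, 3.65 and 3.27 FPKM in LPS_ES_PMMA against 0.112, 0.303 and 0.519 FPKM in LPS_PMMA. Its log2 fold change was 3.18 (SE 0.39). It rests on 76, 36 and 56 reads in LPS_ES_PMMA against 2, 5 and 8 in LPS_PMMA, so the LPS_PMMA level is the less certain one. NONMMUT028809.2, intronic at either position, had 2.84, 2.11 and 3.27 FPKM in LPS_ES_PMMA against 0.439, 0.237 and 0.338 FPKM in LPS_PMMA. Its log2 fold change was 2.54 (SE 0.47), on 39, 16 and 43 reads in LPS_ES_PMMA against 6, 3 and 4 in LPS_PMMA. Groups did not overlap in either feature.

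In both groups the order of mean FPKM on chromosome 17 had NONMMUT100852.1 first and NONMMUT028810.2 next. NONMMUT028811.2 and NONMMUT028809.2 were well below, at 3.72 ± 0.494 and 2.74 ± 0.583 FPKM in LPS_ES_PMMA and at 0.311 ± 0.204 and 0.338 ± 0.101 FPKM in LPS_PMMA. In LPS_PMMA these last 2 were within their spread, and their order was reversed.

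On chromosome 8, NONMMUT064461.2 had 8.74, 12.5 and 10.0 FPKM in LPS_ES_PMMA against 1.73, 0.934 and 1.00 FPKM in LPS_PMMA. It is the feature antisense to Gm7461 as listed and over the last Zfp958 exon less the offset. Its log2 fold change was 2.58 (SE 0.44), on 71, 56 and 78 reads in LPS_ES_PMMA against 14, 7 and 7 in LPS_PMMA. Every LPS_ES_PMMA library was above every LPS_PMMA library. NONMMUT127998.1 had 9.41, 9.23 and 6.49 FPKM in LPS_ES_PMMA against 0.945, 1.22 and 2.62 FPKM in LPS_PMMA, with a fitted log2 change of 1.98 (SE 0.37) on 50, 27 and 33 reads in LPS_ES_PMMA against 5, 6 and 12 in LPS_PMMA. Library 3 was the lowest of LPS_ES_PMMA and the highest of LPS_PMMA, and the groups still did not overlap. NONMMUT127997.1 had 9.67, 6.06 and 5.57 FPKM in LPS_ES_PMMA against 0.670, 0.542 and 1.55 FPKM in LPS_PMMA, with a fitted log2 change of 2.51 (SE 0.42) on 58, 20 and 32 reads in LPS_ES_PMMA against 4, 3 and 8 in LPS_PMMA. Library 1 was the high one of LPS_ES_PMMA, and there was no overlap.

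ENSMUST00000181337, the Gm6410 transcript, was the least abundant member of this locus per length in either group. It had 7.04, 5.48 and 2.94 FPKM in LPS_ES_PMMA against 0, 0.436 and 0.934 FPKM in LPS_PMMA. Its reads were 35, 15 and 14 in LPS_ES_PMMA against 0, 2 and 4 in LPS_PMMA. A count of 0 in LPS_PMMA 1 allows up to 1.47 CPM there (3 counts), and the fitted log2 fold change of 3.05 (SE 0.67) has the widest error of the 8. Mean FPKM on this locus was closer between members than on chromosome 17, at 10.4 ± 1.92 for NONMMUT064461.2, 8.37 ± 1.64 for NONMMUT127998.1, 7.10 ± 2.24 for NONMMUT127997.1 and 5.15 ± 2.07 for ENSMUST00000181337 in LPS_ES_PMMA (SD, n = 3). The means of NONMMUT064461.2 and NONMMUT127998.1 differed by more than either SD, although their library values overlapped, and the next neighbours in that order differed by less than the larger of their SDs. In LPS_PMMA NONMMUT127998.1 (1.60 ± 0.899) stood above NONMMUT064461.2 (1.22 ± 0.442), by less than either SD.

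**Figure D2:**
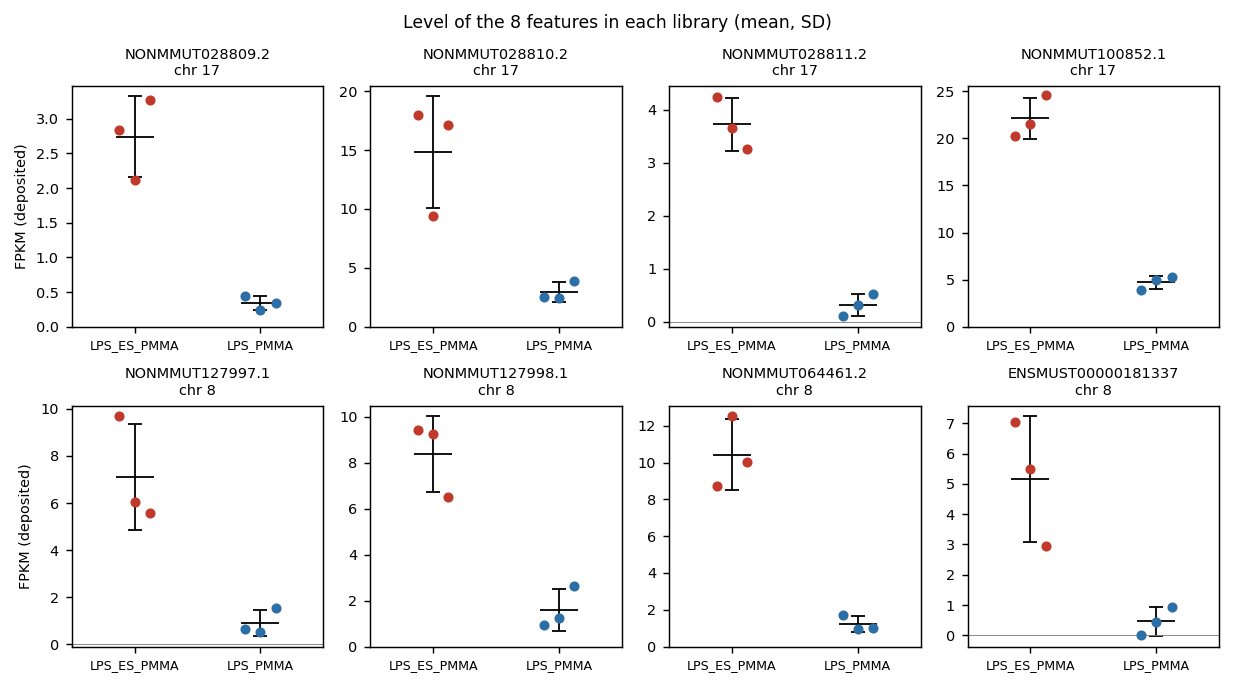
Deposited FPKM of each member in each library (points), with the group mean and SD (bar), LPS_ES_PMMA left and LPS_PMMA right. Each panel has its own axis from about 0. In all 8 panels the lowest LPS_ES_PMMA point is above the highest LPS_PMMA point. The members were chosen on this comparison, and the share of all features without overlap in FPKM was not computed.

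Within a locus the share of the reads that a member took overlapped between the groups for 7 of the 8 members. NONMMUT028811.2 took 14.4 to 21.1% of the chromosome 17 reads in LPS_ES_PMMA and 3.70 to 11.4% in LPS_PMMA, without overlap. NONMMUT100852.1 took 31.3 to 42.7% in LPS_ES_PMMA and 40.0 to 50.0% in LPS_PMMA. NONMMUT028810.2 took 26.9 to 40.0% in LPS_ES_PMMA and 35.7 to 42.9% in LPS_PMMA. On chromosome 8, NONMMUT064461.2 took 33.2 to 49.7% in LPS_ES_PMMA and 22.6 to 60.9% in LPS_PMMA, where the whole locus held 18 to 31 reads. Such shares carry the counting error of few reads.

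**Figure D3:**
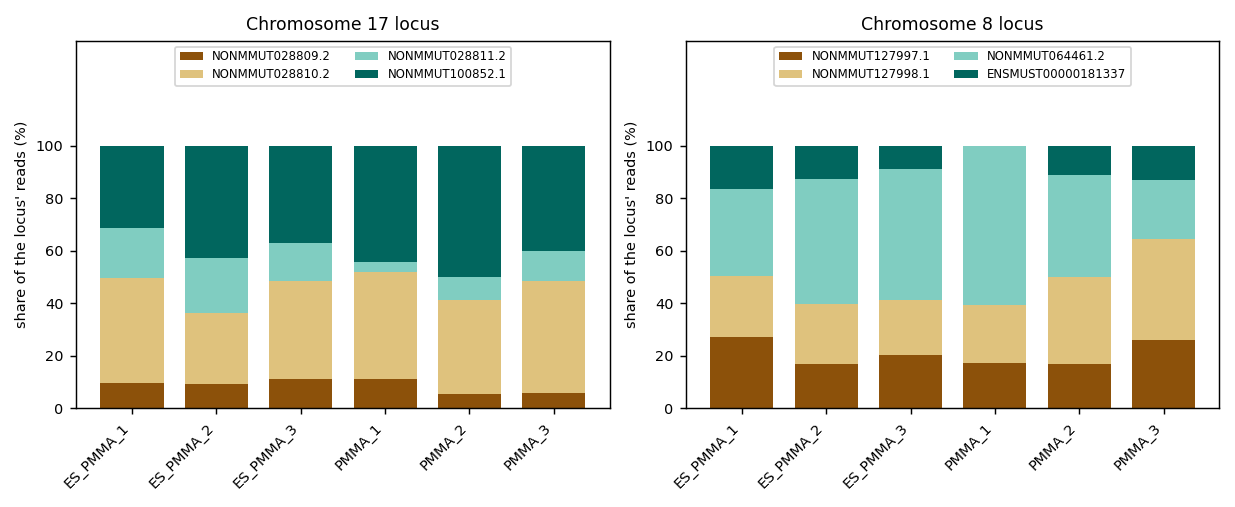
Share of each locus' reads held by each of its 4 members, per library, with LPS_ES_PMMA left and LPS_PMMA right. ENSMUST00000181337 has no segment in LPS_PMMA 1, where it had 0 reads.

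The loci were put forward as higher throughout, and their values under the alternatives are given as a description. The alternatives reuse the libraries on which the members were chosen, so a sign above 0 was largely fixed in advance. The log2 fold change of every member was above 0 in all 112 alternative values (14 alternatives for each of 8 members), between 1.47 and 3.93. Leaving out each library in turn kept the chromosome 17 sum between 1.87 (without LPS_ES_PMMA 3) and 2.23, and the chromosome 8 sum between 2.25 (without LPS_PMMA 2) and 2.56. No member of the 8 passed the threshold in all 6 of these fits, whereas 7 of the 8873 features (0.0789%) did so with higher levels in LPS_ES_PMMA. NONMMUT028811.2 passed in 3 of them, NONMMUT028810.2, NONMMUT127997.1 and NONMMUT064461.2 in 1, and the other 4 members in 0. The share of all features passing in 1 to 3 of these fits was not computed, so nothing is read from the passes of single members. These fits called 50 to 136 features in all, against 422 with all libraries.

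**Figure D4:**
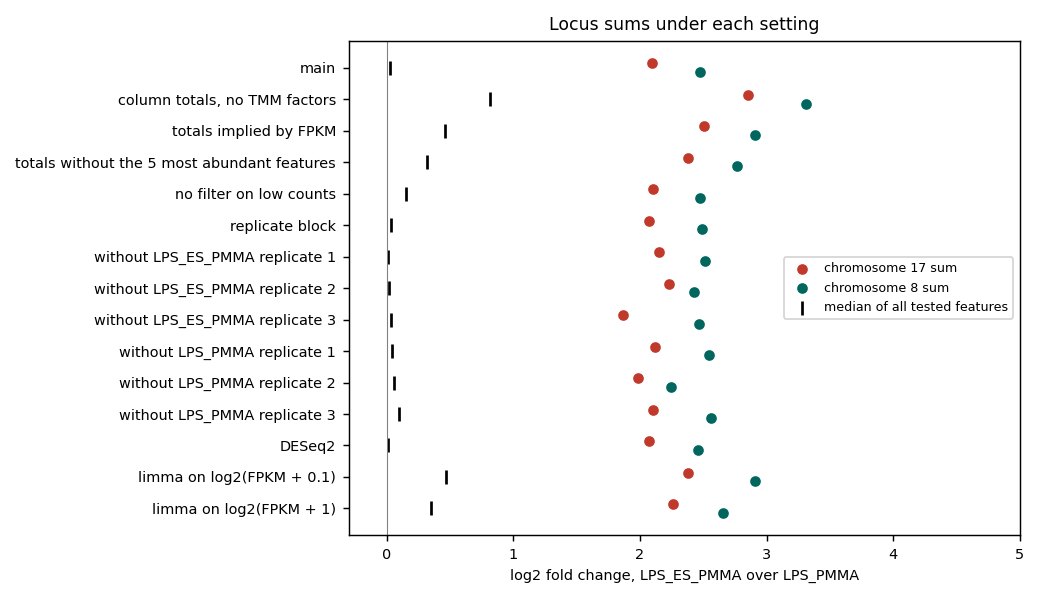
Log2 fold change of both locus sums (points) under each setting, with the median over all features of that fit (tick). Points of the limma settings are from summed FPKM, the others from summed reads. The points move with the tick: the chromosome 17 sum was 1.84 to 2.21 above the median and the chromosome 8 sum 2.19 to 2.51 above it.

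Features next to the loci were not used to choose them and could be tested. Within 250 kb of the chromosome 17 locus 18 other features are listed, of which 13 had at least 10 reads over the libraries and 6 passed the filter. Of the 6, edgeR's quasi-likelihood test called 0, with 2 at an unadjusted p under 0.05, where 21.9% of all tested features stood. DESeq2 and limma on log2(FPKM + 0.1) also called 0, while limma on log2(FPKM + 1) called 1. The median of their log2 fold changes was 0.15. NONMMUT100857.1 had 49, 33 and 42 reads in LPS_ES_PMMA against 10, 19 and 19 in LPS_PMMA, with a log2 fold change of 1.13 (SE 0.31, edgeR adjusted p = 0.0864). NONMMUT028819.2 had 116, 61 and 61 reads in LPS_ES_PMMA against 28, 32 and 40 in LPS_PMMA, with a log2 fold change of 0.96 (SE 0.27, edgeR adjusted p = 0.0880). The interval of NONMMUT028819.2 overlaps 855 bp of Ergic1 exons less the offset. Both missed the threshold. In both, every LPS_ES_PMMA library was above every LPS_PMMA library in CPM, as in 16.2% of the 8873 tested features.

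NONMMUT028818.2, whose interval overlaps 1008 bp of Ergic1 exons less the offset, had 184, 78 and 143 reads in LPS_ES_PMMA against 100, 80 and 99 in LPS_PMMA (log2 fold change 0.19, SE 0.27, edgeR adjusted p = 0.733). MSTRG.24483.1, an assembled transcript whose 1141 nt equal its exon overlap with Dusp1, a phosphatase of MAP kinases, less the offset, had 51, 15 and 57 reads in LPS_ES_PMMA against 26, 54 and 33 in LPS_PMMA. Its log2 fold change was -0.22 (SE 0.40, edgeR adjusted p = 0.800), and it turned above 0 with the other scalings. NONMMUT028815.2 had a log2 fold change of 0.11 (SE 0.29, edgeR adjusted p = 0.871), and ENSMUST00000172664, of Gm20468, had 0.01 (SE 0.40, edgeR adjusted p = 0.996). These 4 thus gave no call in either direction. Of the 7 neighbours below the filter, NONMMUT144820.1 lies between members and had 9, 4 and 10 reads in LPS_ES_PMMA against 0, 0 and 3 in LPS_PMMA. MSTRG.24520.1, whose 225 nt match Atp6v0e exons less the offset, had 7, 8 and 4 reads in LPS_ES_PMMA against 3, 2 and 5 in LPS_PMMA. MSTRG.24466.1, which matches the splicing gene Luc7l in that way, had 8, 6 and 5 reads in LPS_ES_PMMA against 2, 8 and 3 in LPS_PMMA. None of these low counts was tested. NONMMUT028799.2 stood the other way, with 3, 0 and 0 reads in LPS_ES_PMMA against 2, 22 and 20 in LPS_PMMA. NONMMUT101930.1 had 6, 1 and 3 reads in LPS_ES_PMMA against 6, 3 and 10 in LPS_PMMA. NONMMUT101916.1 had 0, 4 and 6 reads in LPS_ES_PMMA against 0, 0 and 1 in LPS_PMMA, and NONMMUT100848.1 had 2 to 4 reads in LPS_ES_PMMA and 2 to 3 in LPS_PMMA.

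On chromosome 8 only 4 other features are listed within 250 kb and none passed the filter. NONMMUT064460.2, the one with at least 10 reads, lies inside the locus and had 12, 6 and 9 reads in LPS_ES_PMMA against 0, 4 and 4 in LPS_PMMA. It overlaps 1 member, NONMMUT064461.2. Widening the window to 500 kb gave 11 tested features on chromosome 17 and 5 on chromosome 8, of which edgeR called 0, with 2 at an unadjusted p under 0.05, both on chromosome 17 and the same 2 as above. DESeq2 called 0 of them and limma on log2(FPKM + 1) called 1. Of the 36 genes of the early secretory pathway, to which Ergic1 belongs, 9 had a feature by the table's gene column besides the members. Of their 20 features 5 were tested, with 0 called by edgeR, DESeq2 or limma and 0 at an unadjusted p under 0.05 in edgeR. The 5 lie at Sec24d, Gbf1 and Sec24c only and are labelled intronic or antisense. They are therefore not mRNA levels of the pathway's genes. Over all tested features edgeR called 4.76%, and 21.9% had an unadjusted p under 0.05. The median log2 fold change of the 5 was 0.16, beside 0.03 over all features.

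**Figure D5:**
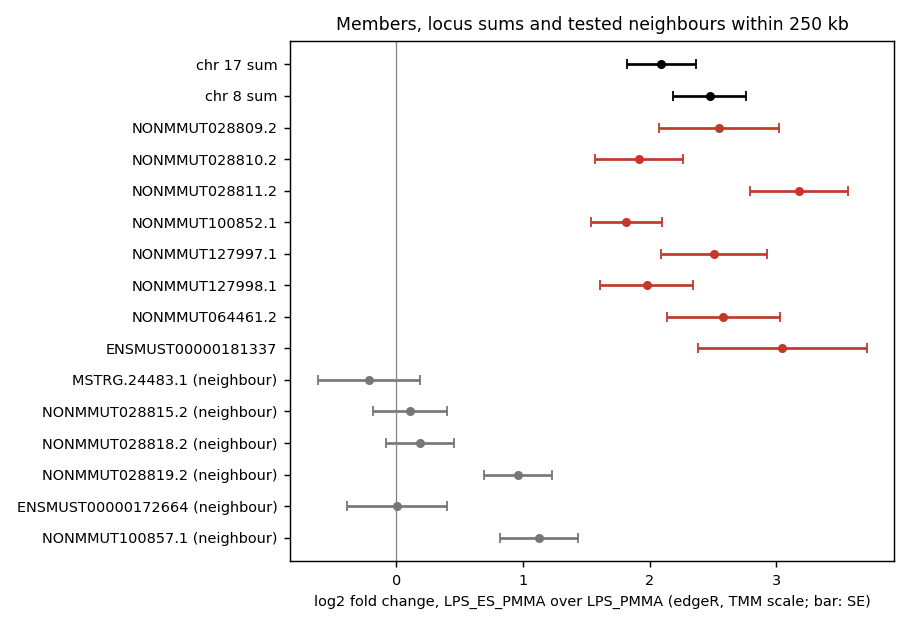
Log2 fold change (LPS_ES_PMMA over LPS_PMMA) with its SE for both locus sums (black), the 8 members (red) and the 6 tested neighbours within 250 kb of the chromosome 17 locus (grey). The members lie between 1.82 and 3.18 and the neighbours between -0.22 and 1.13.

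The Pearson r of log2 CPM between the locus sums was 0.974 over 6 libraries, which share the difference between groups. Both loci were chosen as higher in LPS_ES_PMMA, so a high r was largely fixed in advance. Within LPS_ES_PMMA, library 2 was the lowest for chromosome 17 (97.1, 86.6 and 131 CPM). It was the highest for chromosome 8 (52.0, 59.8 and 52.9 CPM). Within LPS_PMMA, library 2 was the lowest for both. By Pearson r of log2 CPM, 388 of the 8859 features compared had an r above 0.9 with the chromosome 17 sum and 405 with the chromosome 8 sum. The 5 most like the chromosome 17 sum were NONMMUT011348.2 (tied to Ppm1e, r = 0.997), NONMMUT084733.1 (0.997), MSTRG.31906.1 (0.996), NONMMUT126510.1 (Nova2, 0.996) and NONMMUT031052.2 (0.994). The 5 most like the chromosome 8 sum were NONMMUT106232.1 (r = 0.997), NONMMUT140590.1 (tied to Mir21a, 0.996), NONMMUT029171.2 (Zfp563, 0.995), ENSMUST00000181963 (Gm26899, 0.994) and NONMMUT069247.2 (Peak1, 0.994). Their log2 fold changes ran from 0.71 for ENSMUST00000181963 to 7.04 for NONMMUT031052.2, so a like profile over 6 libraries did not mean a like size of difference.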

How the data were processed

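RNA of 6 libraries was measured, 3 per group, grouped by the titles. Counts are whole numbers of reads for each feature, as deposited by the authors without normalization. FPKM columns were deposited beside them, per the file headers. The log2 fold change, p-value and q-value columns of the deposited table are the authors' from edgeR, per the file headers, and were not used except for the UP mark. The submitters' processing notes name the build mm10. No source used here gives the aligner, the counter or its strand setting.

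The members and gene lists were chosen with earlier results of these data known. Features were kept by filterByExpr (minimum count 10, minimum total 15), scaled by TMM and tested by quasi-likelihood in edgeR 4.0.16 (R 4.3.3), with Benjamini-Hochberg adjustment over 8873 features and a threshold of 0.05. Fold changes use a prior count of 0.125, and the SE is approximate, from the log2 fold change divided by the root of its F statistic. Fold changes and SE of members and sums come from a second such fit with the locus sums added as rows, as a description. Calls and neighbour values come from the fit without those rows. CPM are counts over TMM-scaled totals, on which 3 counts equal 0.729 to 1.52 CPM in LPS_ES_PMMA and 1.08 to 1.47 CPM in LPS_PMMA. Such limits cover counting error only. DESeq2 1.42.0 and limma 3.58.1 on log2(FPKM + 0.1) or (FPKM + 1) were alternatives. The edgeR step was tested on simulated data.

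Named were all members, neighbours within 250 kb with at least 10 reads, overlapped genes, the 5 features of highest Pearson r of log2(CPM + 0.5) with each sum, and called genes of the early secretory list. Gene models are GENCODE M21 and RefSeq GRCm38.p6, and models of a later mouse build were not used here. The offset of assembled transcripts was found after seeing the data. No 2 libraries of the same group were alike within counting noise.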

Additional observations from a re-analysis of the deposited data

How the results depend on the processing

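The call count of 422 features became 174 without the filter on low counts, 41 with the replicate block and 50 to 136 on leaving out 1 library. The labels do not say if equal numbers pair the libraries. Correlations of same-numbered libraries were -0.017, -0.029 and -0.086, and those of differently numbered libraries ran from -0.069 to 0.106. So few libraries cannot decide if numbers mark a shared culture or batch. With the replicate block the locus sums were 2.07 and 2.49. The split of 193 higher and 229 lower moved with the scaling: 302 and 68 with column totals, 248 and 96 with the totals implied by FPKM, 335 and 158 without the 5 most abundant features, and 207 and 90 or 415 and 133 with limma on FPKM + 0.1 or + 1. The median of all features was then 0.82, 0.46, 0.32, 0.47 and 0.35, against 0.03. In the first 4 of these the chromosome 17 sum was 2.85, 2.51, 2.38 and 2.38 and the chromosome 8 sum 3.31, 2.91, 2.76 and 2.91. The last value of each, under limma, is a difference in mean log2 of the members' summed FPKM, not a fit to summed reads. Relative to that median the sums stayed at 1.84 to 2.21 and 2.19 to 2.51 over all settings. The largest chromosome 17 member alone had 1.82. Sums with the other features listed in each locus, an alternative chosen after seeing the data, were 2.11 and 2.41. Of 112 alternative values of single members, 93 moved by less than the spread between libraries and 19 by more, all staying above 0; ENSMUST00000181337 reached 3.86 without LPS_PMMA 3 and 2.07 with limma on FPKM + 1.

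Of the neighbours 0 were called, with 2 called without the 5 most abundant features (NONMMUT028819.2 at 1.26 and NONMMUT100857.1 at 1.40) and 1 with limma on FPKM + 1 (NONMMUT100857.1, 1.42). Their adjusted p ran over the alternatives from 0.0480 to 0.290 for NONMMUT028819.2 and from 0.0488 to 0.219 for NONMMUT100857.1. MSTRG.24483.1 turned to 0.46, 0.18 and 0.054 under the 3 other scalings and to 0.16 and 0.15 with limma, and ran from -0.62 to 0.065 on leaving out 1 library, above 0 without LPS_ES_PMMA 2 (0.057) or LPS_PMMA 2. ENSMUST00000172664 turned to -0.027 with DESeq2 and ran from -0.27 to 0.21 on leaving out 1 library, below 0 without LPS_ES_PMMA 1, LPS_ES_PMMA 3 or LPS_PMMA 3. NONMMUT028815.2 ran from -0.11 to 0.23 in those fits, below 0 without LPS_PMMA 2. The cause was not tested. Members had 0 to 30 reads in an LPS_PMMA library.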
